A study of Homo sapiens with 8 samples.

Results

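Nascent transcription of the genes for cytoplasmic ribosomal proteins was examined in IMR90 ER:RAS, a culture of primary lung fibroblasts of human origin in which oncogenic RAS can be switched on. The members are the protein-coding rows named RPL or RPS with a number (RPL3, RPS6), the acidic stalk genes RPLP0, RPLP1 and RPLP2, RPSA, RPS4X, and the paralogs RPL7L1, RPL22L1, RPL26L1, RPL36AL, RPL39L and RPS27L. They are 83 of the 27945 genes in the table, and 81 of them had enough counts to be tested. Symbol and biotype decide which rows belong to the group, while the group itself was taken up with earlier results of these data known.

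Nuclear run-on RNA was sequenced by fastGRO-seq, in which nuclei extend engaged transcripts with 4-thio-UTP and the labelled RNA is pulled down, so the reads mark genes under transcription rather than stored mRNA. There were 4 groups of 2 libraries: control cells, and senescent cells with shControl, shMETTL3 or shMETTL14, the senescent cells having received 100 nM 4-OHT to switch on RAS and been harvested at day 6. All cells carry the ER:RAS construct, and the control cells are labelled without an shRNA, so the effect of senescence and that of carrying shControl cannot be told apart. METTL3 and METTL14 form the core of the m6A methyltransferase complex (MTC), which methylates adenosines in RNA. The shControl libraries held 77 and 47 raw METTL3 counts and the shMETTL3 libraries 16 and 19, a log2 change of -2.04 (edgeR, adjusted p = 1.79e-05). For METTL14 the shControl libraries held 24 and 28 and the shMETTL14 libraries 18 and 14, a log2 change of -0.86 that did not pass the test (adjusted p = 0.0763). Such counts of nascent RNA do not measure the mRNA or protein left after knockdown. The paper presents a western blot of the knockdown cells.

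Ribosomal proteins join ribosomal RNA to form the large and the small subunit of the ribosome, and cells need them in nearly equal amounts. Their genes are short, very active in growing cells and spread over many chromosomes. Most of them start transcription at a C inside a run of pyrimidines, which becomes the 5' terminal oligopyrimidine (5'TOP) tract of the mRNA, the element through which mTOR and LARP1 control translation of these mRNAs. Senescent cells have stopped dividing and yet stay metabolically active and secrete proteins.

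The annotated starts of the genes that the comparisons turn on are shown first, to show which have a run of pyrimidines that opens exactly there. A gene without it may still have a 5'TOP tract from a start nearby. Of the 83 members, 67 matched a RefSeq promoter (GRCh38.p14, 250 bases before to 50 after the start). The bases from 30 before the start to the 20 from the start on are given, with the run of pyrimidines that opens with a C at the start in capitals. The first set holds the largest rises in senescence or after shMETTL14 among called members with a mean of at least 100 raw counts. RPS29 is left out. Other members called are not printed: after shMETTL14, 9 of 43 with the run and 4 of 24 without it were higher.
RPS13, chr11:17077648-17077697, minus strand: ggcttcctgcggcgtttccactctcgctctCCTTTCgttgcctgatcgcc
RPS24, chr10:78033833-78033882, plus strand: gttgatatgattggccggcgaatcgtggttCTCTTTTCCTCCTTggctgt
RPS10, chr6:34426050-34426099, minus strand: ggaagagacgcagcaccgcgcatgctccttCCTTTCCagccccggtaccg
RPS19, chr19:41860225-41860274, plus strand: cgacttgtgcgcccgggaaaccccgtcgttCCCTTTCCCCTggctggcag
RPS16, chr19:39435930-39435979, minus strand: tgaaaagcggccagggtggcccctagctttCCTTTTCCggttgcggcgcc
RPL27A, chr11:8682762-8682811, plus strand: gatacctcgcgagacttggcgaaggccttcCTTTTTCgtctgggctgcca
RPL29, chr3:51995876-51995925, minus strand: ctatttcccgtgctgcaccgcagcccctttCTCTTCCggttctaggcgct
The second set holds the largest falls after shMETTL3 among called members with the same mean. RPL14 has such a run at the annotated start. The other 4 have no run of at least 5 bases that opens there, though RPL10A has pyrimidines a few bases on. After shMETTL3, 8 of 43 members with the run and 9 of 24 without it were lower.
RPL14, chr3:40457309-40457358, plus strand: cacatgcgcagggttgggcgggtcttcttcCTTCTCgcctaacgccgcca
RPL3, chr22:39319604-39319653, minus strand: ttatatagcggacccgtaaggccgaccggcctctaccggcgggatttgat
RPL10A, chr6:35468371-35468420, plus strand: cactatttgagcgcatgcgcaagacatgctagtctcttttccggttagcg
RPS7, chr2:3575230-3575279, plus strand: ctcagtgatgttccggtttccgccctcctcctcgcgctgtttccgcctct
RPS4X, chrX:72277229-72277278, minus strand: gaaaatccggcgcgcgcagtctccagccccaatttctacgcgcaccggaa

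A C at the start followed by pyrimidines, at least 5 bases in all, was found in 43 of the 67 members (64.2%) and in 1429 of 35116 RefSeq promoters (4.07%). The letters CCGGAAG, which the ETS factor GABP binds, were in 34.3% of the members' promoters and 10.3% of all promoters, searched on both strands over the whole window. AAGATGG, the core of the YY1 motif, was in 13.4% against 5.84%. The SP1 box GGGCGG was in 53.7% against 45%, the TATA box letters TATAAA in 8.96% against 11.5%, and the E-box CACGTG, bound by MYC, in 5.97% against 7.26%. These are matches of letters to an annotated start, and a start placed a few bases away would change which genes count.

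Gene bodies of the members were short, from 896 to 23053 bases with a median of 4688, and this matters for each comparison below. Library totals ran from 14897360 to 20306299 counts, of which ribosomal RNA rows took 86.2% to 92.5%, leaving 1513930 to 2048475 counts on other genes. The 83 members without RPS29 had 12044 to 18913 counts per library. Fibroblast identity was visible in all libraries (COL1A1, COL1A2, FN1 and VIM at 700 counts or more), while EPCAM, CDH1, PECAM1, CDH5, CD3E and HBB had at most 2 counts in any library. Other markers of those cell types were counted at low levels. The summed normalized level of the epithelial list, of which the keratins KRT8 and KRT18 passed the filter, was 44 to 46 in the control libraries, 29 to 54 in shControl, 22 to 24 in shMETTL3 and 59 to 70 in shMETTL14. That of the blood list, of which only CD68, also a lysosomal protein of other cells, passed, was 15 to 16, 51 to 74, 26 to 47 and 47 to 51, and that of the endothelial list at most 9.

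RPS29, a small-subunit protein, was set apart. It had 224472 counts over the 8 libraries, against 3796 for RPL3, the next member. Its gene body (hg19, chr14:50050291-50065428) contains a stretch at 50053298-50053596 that is 97.7% identical over 299 bases to RN7SL3, a gene for the 7SL RNA of the signal recognition particle, an abundant RNA polymerase III product. Values of RPS29 cannot be told apart from reads of 7SL, and sums below leave it out. RPL39L, a paralog of RPL39 used mainly in testis, had 16 counts over all libraries and was not tested. RPS18 has 6 copies in the annotation used, and exon reads of ribosomal protein genes can also fall on their many processed pseudogenes.

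Transcription of the remaining 80 members spanned 152-fold. Levels are given as normalized counts (TMM) per kb of gene, averaged over the 8 libraries. Their median was 36, with quartiles of 22.4 and 64.7. The highest were RPS2 at 139.5, RPL8 at 129.9, RPL41 at 103, RPL37A at 102 and RPS27 at 95.6. RPS2 stood at 138 ± 20.3 in the control group, 141 ± 4.85 in shControl, 110.3 ± 49.2 in shMETTL3 and 169 ± 3.47 in shMETTL14 (mean ± SD, n = 2 libraries). RPL8 stood at 139 ± 23.2, 133 ± 4.2, 85.4 ± 8.66 and 162 ± 10.9 in the same order. Libraries of RPS2 and RPL8 overlapped in every group but shControl, so their order is not settled, and 12.4% of RPS2 counts lay in the small nucleolar RNAs SNORA64 and SNORA10 (119 of 391 in replicate 1 of shMETTL3) against 0.367% in a microRNA row for RPL8. RPL41 was above RPL37A in shControl (111 ± 1.13 against 102 ± 7.21) and below it in shMETTL14 (106 ± 3.68 against 127 ± 7.8).

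The lowest members all came from paralog pairs, though other members of such pairs stood higher, as RPS27 at 95.6 and RPL7 at 49.4. RPL26L1 stood at 0.92 normalized counts per kb, RPL22 at 5.75, RPL22L1 at 5.79, RPL39 at 6.15 and RPL36A at 6.87. The last 4 lay close together: in control cells RPL22 was at 5.81 ± 0.877, RPL22L1 at 7.26 ± 0.491, RPL39 at 5.79 ± 0.0688 and RPL36A at 6.67 ± 0.864. RPL26L1, a near copy of RPL26, had 2 to 27 counts per library. Gene length includes introns, so these are levels of transcription along the gene and not of mRNA.

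**Figure D1:**
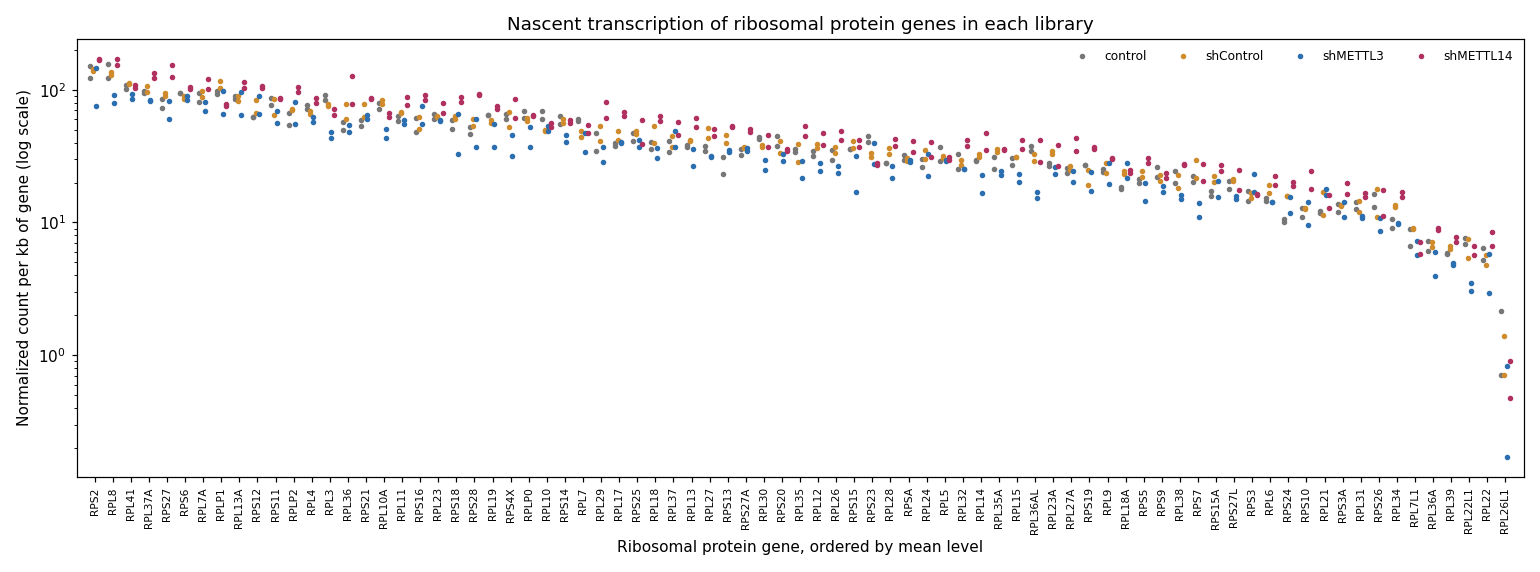
Normalized count per kb of gene (log scale) for 79 of the 81 tested ribosomal protein genes (RPS29 and 1 other are not drawn), ordered by their mean; each point is 1 library, coloured by group. Levels run from 139.5 for RPS2 to 0.92 for RPL26L1, and for most genes the shMETTL14 points lie above the shMETTL3 points.

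Summed without RPS29, the members reached 14827 and 14888 normalized counts in the 2 libraries of the control group, 14846 and 15699 in shControl, 13593 and 11436 in shMETTL3, and 18903 and 17277 in shMETTL14. The group sums were 14857 ± 43.2, 15273 ± 603, 12515 ± 1526 and 18090 ± 1150 (mean ± SD, n = 2). Both shMETTL3 libraries were thus below all others and both shMETTL14 libraries above all others, while the control and shControl libraries overlapped. The shMETTL3 libraries differed most from each other: the median absolute log2 difference between replicates over the members was 0.284 there, against 0.147 in control, 0.133 with shControl and 0.14 with shMETTL14. As raw counts, the members took 0.898% of all counts outside ribosomal RNA in both control libraries, 0.829% and 0.894% in shControl, 0.727% and 0.588% in shMETTL3, and 1.15% and 1.04% in shMETTL14.

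**Figure D2:**
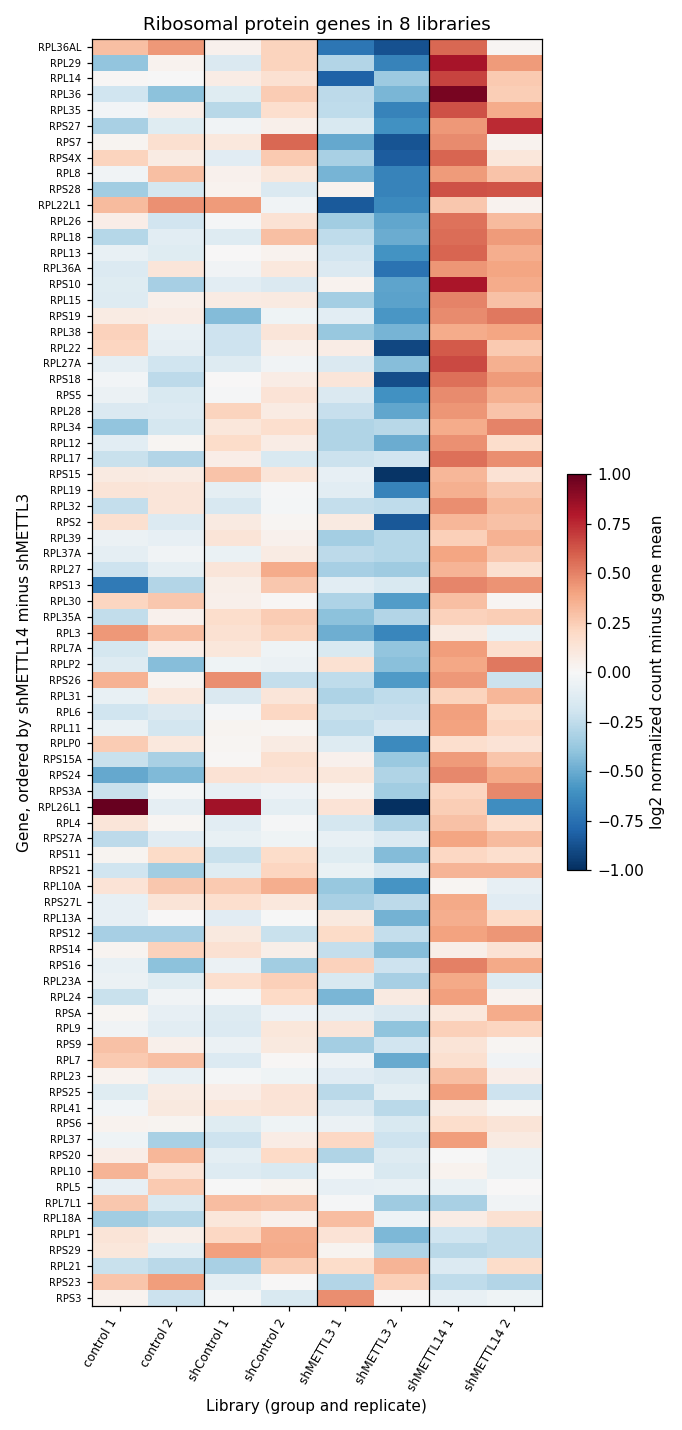
Log2 normalized count of 80 of the 81 tested ribosomal protein genes (rows, 1 not drawn) in each of the 8 libraries (columns), minus the gene's mean over libraries, with genes ordered by the difference between shMETTL14 and shMETTL3. The shMETTL3 columns are mostly below the gene means and the shMETTL14 columns mostly above, with RPS3, RPS23, RPL21 and RPS29 at the bottom as exceptions.

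Senescence was examined first, as senescent shControl cells against control cells. With edgeR's quasi-likelihood test over all 12844 genes tested, 3 members were higher and 1 lower at an adjusted p below 0.05, while 13.3% of all genes were called higher and 13.3% lower. At an unadjusted p below 0.05 the counts were 6 and 3 (all genes 18.1% and 19%). The median log2 change of the 81 members was 0.10, beside -0.03 for all genes. Normalized counts of the groups did not overlap for 32 members on the higher side and 12 on the lower, against 31.5% and 34.5% of all genes. These values depended on the fit. With only the groups compared 11 members were higher and 3 lower (all genes 19.1% and 17.9%), with a median of 0.14. With the length offset 3 were higher and 4 lower (all genes 14.8% and 12.4%) and the median was -0.041, and with length and GC content 3 and 5, at 0.0033. Scaled by library size alone, which shifted the median of all genes to -0.53, 0 were higher and 29 lower (all genes 5.85% and 39%).

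RPS13 and RPS24, small-subunit proteins that start at the pyrimidine runs printed above, rose. Normalized counts of RPS13 (hg19, chr11:17095939-17099220) were 76.2 and 102 in control cells and 130.04 and 150.3 with shControl, a log2 change of 0.65 ± 0.18 (SE, adjusted p = 0.0078). RPS24 (chr10:79793518-79816571) had 234 and 245 in control cells and 368 and 365 with shControl, a change of 0.61 ± 0.15 (adjusted p = 0.0023). It also had 360.1 and 271 with shMETTL3 and 465 and 432 with shMETTL14, so every senescent library was above both control libraries. The third called higher was RPS29 (0.38, adjusted p = 0.046), whose reads hold the 7SL sequence, and which had -0.12 under library-size scaling.

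RPL10, a late-joining large-subunit protein that helps release eIF6, fell from 296 and 257 normalized counts to 214 and 210.3, a log2 change of -0.38 ± 0.14 (adjusted p = 0.047). SNORA70, a small nucleolar RNA inside an intron of RPL10, accounts for 13.9% of its counts, and 25.8% of the gene overlaps DNASE1L1 on the other strand. Its call was kept in 10 of 20 alternatives to the settings used, that of RPS24 in 19 and that of RPS13 in 17, where the change of RPS13 went down to 0.16 (adjusted p = 0.57). The count of members higher in senescence was 1 without replicate 1 of control or replicate 2 of shControl (all genes 8.65% and 9.74%), and 5 and 6 without replicate 1 and 2 of shMETTL3, which are not in the contrast (all genes 15.6% and 15.9%). In the same comparison 7 of 10 fibroblast markers fell, among them DCN by 2.11 and COL3A1 by 1.86 on the log2 scale, and their summed normalized level went from 31249 to 33321 in control libraries to 22044 to 23666 with shControl. CD68 rose by 2.05 on the log2 scale (adjusted p = 2.6e-05). In bulk libraries fewer cells of a kind and less RNA per cell cannot be told apart, and the part of the markers in the members' values was not tested.

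Knockdown of METTL3 in senescent cells was compared next, as shMETTL3 against shControl. Of the 81 members 19 fell (23.5%) and 0 rose, against 11.2% of all genes lower and 12.3% higher. At an unadjusted p below 0.05, 1 member was higher and 32 were lower (all genes 17.3% and 17.5%), and DESeq2 called 0 higher and 7 lower (all genes 7.56% and 5.66%). Their median log2 change was -0.33 (all genes -0.03), and 73 of 81 had a value below 0. Groups did not overlap on the lower side for 54 members and on the higher side for 1, against 30.6% and 27.8% of all genes. The direction is relative to the scaling: by library size alone, which shifted the median of all genes to 0.58, 17 members were higher and 0 lower with a median of 0.29, against 41.2% of all genes higher and 2.75% lower.

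The large subunit had 13 of 50 members lower (median log2 change -0.40) and the small subunit 6 of 31 (median -0.27). RPS7, a small-subunit protein that also binds MDM2, had the largest change among the 19 called: the shControl libraries had 122 and 168 normalized counts and the shMETTL3 libraries 79.001 and 61.7, a log2 change of -1.05 ± 0.21 (adjusted p = 0.00051). RPL10A, the protein of the L1 stalk at the exit site, had 187 and 200.3 in the shControl libraries and 120.04 and 103 in the shMETTL3 libraries, a change of -0.79 ± 0.16 (adjusted p = 0.0007). RPL3, which lies near the peptidyl transferase centre, had 511 and 534 in the shControl libraries and 326 and 291 in the shMETTL3 libraries, a change of -0.76 ± 0.14 (adjusted p = 0.00019). In RPS7, RPL10A and RPL3 both shMETTL3 libraries were below every other library of the study. RPS7 and RPL3 kept their calls in 19 of 20 alternatives and RPL10A in 17, with a smallest change of -0.18 (adjusted p = 0.504).

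RPL14 (157 and 166 with shControl, 85.2 and 116 with shMETTL3) changed by -0.68 ± 0.19 (adjusted p = 0.0085). RPS4X, the X-linked small-subunit protein, had 246 and 318 in the shControl libraries and 212 and 149 in the shMETTL3 libraries, a change of -0.65 ± 0.18 (adjusted p = 0.0095). The call of RPL14 was kept in 14 of 20 alternatives and that of RPS4X in 15, and their smallest changes were -0.058 (adjusted p = 0.855) and -0.047 (adjusted p = 0.869). RPL36AL, a paralog of RPL36A, fell by 0.95 on the log2 scale (adjusted p = 0.01, kept in 15 of 20), while RPL36A itself, which lies wholly within a read-through row with HNRNPH2, had -0.46 (adjusted p = 0.315). RPL22L1 fell by 0.95 (adjusted p = 0.044), a call kept in 6 of 20 alternatives, and its partner RPL22 had -0.27 (adjusted p = 0.481). RPS3 had the highest value of all members, 0.34 (adjusted p = 0.111), and 27.4% of its counts lay in the small nucleolar RNAs SNORD15A and SNORD15B.

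The count of members lower after shMETTL3 depended on single libraries. It was 9 without replicate 1 and 5 without replicate 2 of shControl, when 6.25% and 5.3% of all genes were lower, so the 5 are near the share of all genes. It was 35 without replicate 1 and 9 without replicate 2 of shMETTL3 (all genes 15.1% and 7.89%). The median stayed below 0 in each of these fits, from -0.45 to -0.25 with a library left out. With offsets for gene length and GC content it did not: 5 members were higher and 3 lower, with a median of 0.02, as described with gene length below. Of 10 fibroblast markers 2 fell and 1 rose, and CD68 fell by 0.84 (adjusted p = 0.04); their part was not tested.

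Knockdown of METTL14 was then compared with the same shControl libraries. Here 13 members rose and 2 fell, against 9.15% of all genes higher and 12% lower. The median log2 change was 0.27 (all genes 0), and 67 of 81 members had a value above 0. Groups did not overlap on the higher side for 48 members and on the lower side for 7, against 32.2% and 32.1% of all genes.

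Members called higher were divided between the large subunit (7 of 50, median log2 change 0.24) and the small subunit (6 of 31, median 0.28). RPS19, the gene most often mutated in Diamond-Blackfan anaemia, had 220 and 287 normalized counts in the shControl libraries and 412 and 429 in the shMETTL14 libraries, a log2 change of 0.73 ± 0.16 (adjusted p = 0.0012). RPS10 had 111 and 108 in the shControl libraries and 211 and 155 in the shMETTL14 libraries, a change of 0.74 ± 0.19 (adjusted p = 0.0069), and its gene lies wholly within the read-through row RPS10-NUDT3. RPS16 had 179 and 146 in the shControl libraries and 264 and 241 in the shMETTL14 libraries, a change of 0.64 ± 0.17 (adjusted p = 0.0077). RPL27A had 184 and 197 in the shControl libraries and 320 and 258 in the shMETTL14 libraries, a change of 0.60 ± 0.15 (adjusted p = 0.0058), and RPL29 had 95.8 and 124 in the shControl libraries and 188 and 142 in the shMETTL14 libraries, a change of 0.59 ± 0.20 (adjusted p = 0.035). In all 5 genes the shMETTL14 libraries were the highest of the study, and all 5 start at the pyrimidine runs printed above. Their calls were kept in 19 of 20 alternatives for RPS19, 17 for RPS10, 18 for RPS16 and RPL27A, and 14 for RPL29.

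The stalk of the large subunit, the lateral arm that recruits translation factors, had members called in both directions. RPLP2 rose (209 and 207 with shControl, 282 and 311 with shMETTL14, log2 change 0.51, adjusted p = 0.027), RPLP1 fell (283 and 316 with shControl, 214 and 206 with shMETTL14, -0.51, adjusted p = 0.023), and RPLP0 had 0.10 (adjusted p = 0.686). The call of RPLP2 was kept in 13 of 20 alternatives and that of RPLP1 in 14, where it went to -0.16 (adjusted p = 0.559). Of RPLP2 counts 12.3% lay in SNORA52. RPS29 was the other member that fell (-0.65, adjusted p = 0.0013).

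This count too moved with single libraries: 3 members were higher without replicate 1 or replicate 2 of shControl (all genes 4.06% and 3.73%) and 2 without replicate 1 of shMETTL14 (all genes 3.57%), so that the members were not above the share of all genes in these fits. Without replicate 1 or replicate 2 of shMETTL3, which are not in the contrast, 24 were higher (all genes 12.1% and 12.2%). With only the groups compared 23 were higher (all genes 13.8%), and by library size alone 50 were higher and 1 lower (all genes 24.6% and 5.52%). DESeq2 called 4 higher and 1 lower, near the share of all genes on the higher side (4.42%, and 7.4% lower). In this comparison 8 of 10 fibroblast markers fell (DCN by 2.38, COL3A1 by 1.60), with a summed level of 14540 to 17136 against 22044 to 23666 with shControl, and their part in the members' values was not tested.

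The direct comparison of shMETTL14 with shMETTL3 sets no control library against either, though the control and shControl libraries enter the filter, the scaling and the estimate of spread. It had the most members called of the 6 comparisons. Of 81 members 54 were higher with shMETTL14 and 0 lower, against 16.5% of all genes higher and 18.7% lower. At an unadjusted p below 0.05 the counts were 61 and 0 (all genes 22% and 23%), and DESeq2 called 38 and 0 (all genes 9.44% and 13.3%). The median log2 difference was 0.57 (all genes 0.01), 75 of 81 members had a value above 0, and groups did not overlap on the higher side for 69 members and on the lower side for 1 (33.5% and 32.8% of all genes). Leaving out replicate 1 of shMETTL14 reduced the count to 27 (all genes 7.31%), and the range over all left-out libraries was 27 to 58. By library size alone 22 were higher and 3 lower (all genes 9.16% and 27.1%), and with offsets for length and GC content 8 and 7, as given below. In this comparison 6 of 10 fibroblast markers were lower and 1 higher (median -0.78, summed level 14540 to 17136 with shMETTL14 and 25426 to 29605 with shMETTL3), and KRT8 (1.38, adjusted p = 0.014) and KRT18 (1.63, adjusted p = 0.0014) were higher. Their part in the members' values was not tested.

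By subunit, 35 of 50 large-subunit members (median 0.59) and 19 of 31 small-subunit members (median 0.51) were higher. RPL29, a basic large-subunit protein that also binds heparin, had 86.2 and 66.5 normalized counts with shMETTL3 and 188 and 142 with shMETTL14, a log2 difference of 1.12 ± 0.21 (adjusted p = 0.00012). RPL14 had 85.2 and 116 with shMETTL3 and 239 and 179 with shMETTL14, a difference of 1.05 ± 0.18 (adjusted p = 4.6e-05). In RPL14 all 4 control and shControl libraries (149 to 166) lay between the 2 knockdowns, while in RPL29 the control libraries overlapped those of shMETTL3.

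RPL5 and RPL11, which with 5S rRNA form the particle that can bind MDM2 and thereby stabilise p53, are given side by side, and their difference from each other was not tested. RPL11 was higher with shMETTL14 (280.1 and 298 against 443 and 390, log2 difference 0.53, adjusted p = 0.0035), and RPL5 had 289 and 291 against 293 and 307, a difference of 0.05 (adjusted p = 0.825). The gene of RPL5 shares 92.5% of its span with FAM69A on the other strand, and in these counts overlapping genes share reads. In the stalk RPLP0 (0.52) and RPLP2 (0.57) were higher and RPLP1 had -0.09 (adjusted p = 0.706). These calls were kept in 14 of 20 alternatives for RPLP0 and RPLP2 and 16 for RPL11. With offsets for length and GC content the differences were -0.012 for RPLP0, -0.15 for RPLP2 and 0.02 for RPL11 (adjusted p = 0.915).

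Among the paralog pairs, RPS27 was higher with shMETTL14 (116 and 84.5 against 174 and 216, difference 0.96, adjusted p = 0.00015), and RPS27L, which p53 induces, had 0.45 (adjusted p = 0.0973). RPL26 (0.87), RPL22 (0.80), RPL22L1 (0.90), RPL36A (0.84) and RPL36AL (1.14) were all higher. These calls were kept in 20 of 20 alternatives for RPL26, 14 for RPL22, 11 for RPL22L1, 12 for RPL36A and 17 for RPL36AL. RPL26L1 had 0.49 (adjusted p = 0.65), RPL39 had 0.61 (adjusted p = 0.117), RPL7 had 0.33 (adjusted p = 0.141) and RPL7L1 had 0.00 (adjusted p = 0.998). The difference between the members of a pair was not tested.

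**Figure D3:**
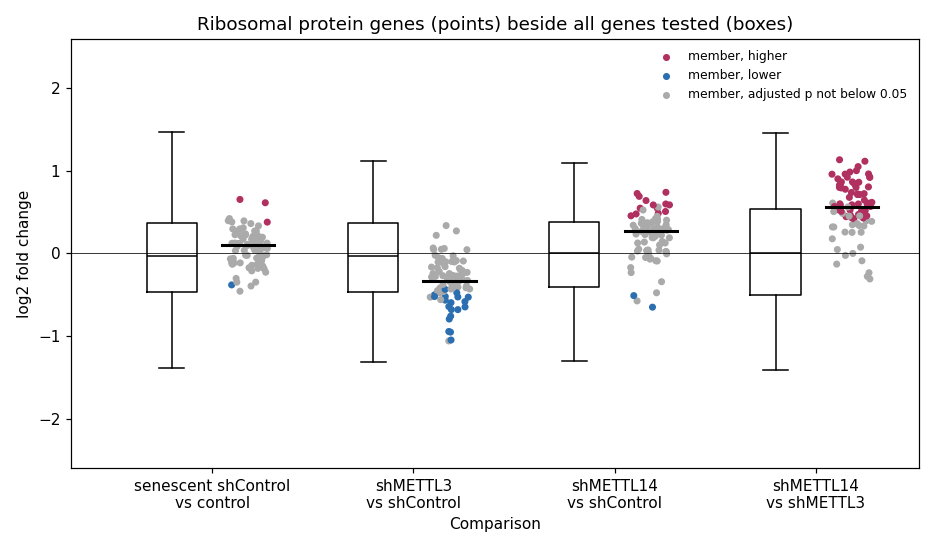
Log2 fold change of the 81 tested ribosomal protein genes (points, coloured by call, bar at the median) beside all 12844 genes tested (boxes from the lower to the upper quartile with the median, whiskers from the 5 to the 95 percentile) in 4 comparisons. The members' median is 0.10 in senescence, -0.33 after shMETTL3, 0.27 after shMETTL14 and 0.57 between the knockdowns.

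Gene length moved with this result and has to be read beside it. Between shMETTL14 and shMETTL3 the other protein-coding genes differed by length: their median log2 difference was 0.55 for the 815 genes up to 5 kb, 0.42 for 5 to 10 kb, 0.32 for 10 to 20 kb, 0.06 for 20 to 50 kb, -0.15 for 50 to 100 kb and -0.39 for genes over 100 kb. Members had 0.57 up to 5 kb (43 genes), 0.61 from 5 to 10 kb (29) and 0.53 from 10 to 20 kb (7). Up to 5 kb the members' median was thus close to that of other genes of the same length, and in the next bins it was higher. The share called higher was 67.4% of members and 27.7% of other genes up to 5 kb, but the members had a median of 171 counts per library there and the others 20.8, so the share called is not comparable at these depths.

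After shMETTL3 the medians of other genes ran from -0.44 up to 5 kb to 0.28 over 100 kb, and the members had -0.33, -0.39 and -0.33 in the 3 bins up to 20 kb, beside -0.44, -0.31 and -0.26. After shMETTL14 the trend was flatter: other genes had 0.12, 0.13 and 0.08 in those bins and -0.08 over 100 kb, and the members had 0.26, 0.29 and 0.20. The members' median was above that of other genes in all 3 bins after shMETTL14, and the size of this gap was not tested.

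With an offset for gene length in the fit, 19 members were higher and 6 lower in shMETTL14 against shMETTL3, with a median of 0.14, while 15.2% of all genes were higher and 16.5% lower in that fit. The same fit gave 2 higher and 2 lower after shMETTL3 (median -0.07, all genes 9.51% and 9.92%) and 6 higher and 2 lower after shMETTL14 (all genes 10.3% and 12%). With an offset for length and then GC content, chosen after these values were seen, the direct comparison had 8 higher and 7 lower (median 0.08, all genes 16.2% and 15.8%). That fit gave 5 higher and 3 lower after shMETTL3 (median 0.02, all genes 9.68% and 11.3%) and 6 higher and 5 lower after shMETTL14 (median 0.10, all genes 11.3% and 12.4%). With length and GC content in the fit none of these shares of members called was above that of all genes. Among the 81 members themselves the difference between knockdowns had a Spearman rho of -0.0905 with length, 0.267 with GC content and -0.0571 with level per kb, all across genes of the same libraries.

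**Figure D4:**
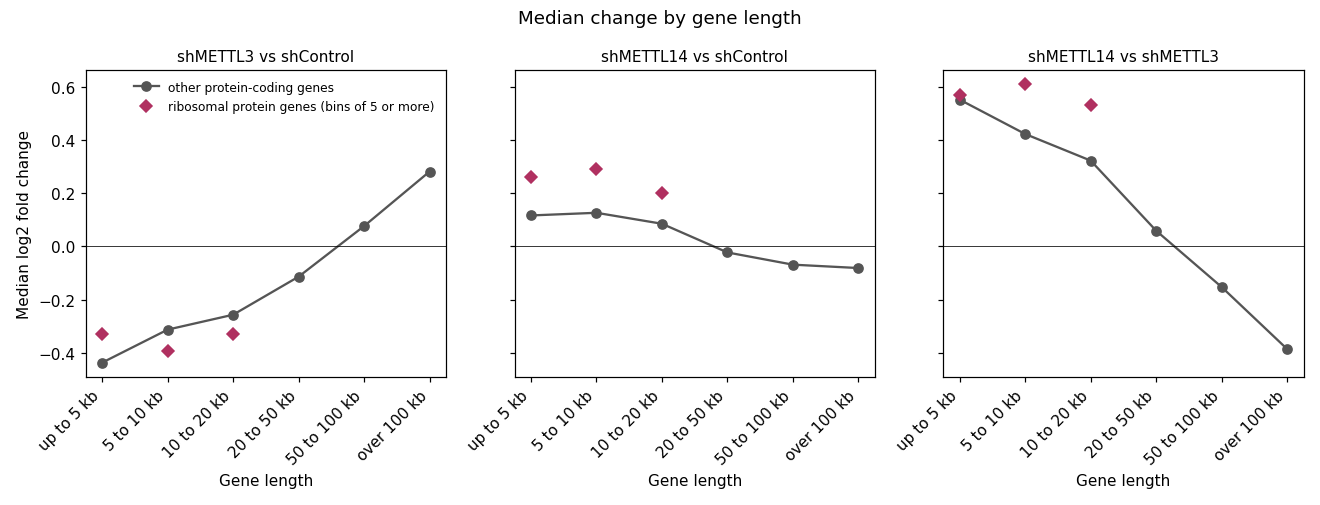
Median log2 fold change of other protein-coding genes (line) and of ribosomal protein genes (diamonds, bins with at least 5 members) by gene length, in the 3 knockdown comparisons. In shMETTL14 against shMETTL3 the line falls from 0.55 for genes up to 5 kb to -0.39 for genes over 100 kb, and the first diamond, at 0.57, lies close to it.

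Members that start with the pyrimidine run were compared with those that do not, as counts. In shMETTL14 against shMETTL3, 30 of 43 with the run (median 0.59) and 17 of 24 without it (median 0.58) were higher. After shMETTL3, 8 of 43 with the run (median -0.30) and 9 of 24 without it (median -0.45) were lower, and after shMETTL14, 9 of 43 (median 0.30) and 4 of 24 (median 0.20) were higher. These splits were not tested.

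Both knockdowns were also set against the control cells, with RAS induction and shRNA changed together. In senescent shMETTL3 cells 1 member was higher and 21 were lower than in control cells (all genes 20.1% higher and 20.1% lower), with a median log2 change of -0.24. With the length offset the counts were 8 higher and 10 lower (median -0.057, all genes 21.2% and 19%), and with length and GC content 10 and 8 (median 0.035, all genes 20.6% and 19.2%), so the direction was not kept. Of 10 fibroblast markers 7 were lower and 1 higher, CD68 was called higher (1.21), and 1 of the 2 epithelial markers tested was called lower. RPL3 (621 and 568 in control, 326 and 291 with shMETTL3) changed by -0.94 ± 0.14 (adjusted p = 2.7e-06). RPS7 (115 and 126 against 79.001 and 61.7) changed by -0.78 ± 0.21 (adjusted p = 0.0035). The member that rose was RPS24 (0.40, adjusted p = 0.033), and it lost the call in 8 of 20 alternatives. RPLP0 (-0.55, adjusted p = 0.0052) and RPL7 (-0.55, adjusted p = 0.011) were lower too. The count lower was 13 without replicate 1 or 2 of control or replicate 2 of shMETTL3, near the 13.6%, 14.6% and 15.9% of all genes lower in those fits, and 10 with DESeq2 (all genes 12.3%).

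In senescent shMETTL14 cells 32 members were higher and 2 lower than in control cells (all genes 19.7% and 20.5%), with a median of 0.34. With the length offset the counts were 16 and 8 (median 0.10, all genes 21.2% and 19.3%), with length and GC content 20 and 10 (all genes 22.3% and 20.1%), and by library size alone 15 and 4 (all genes 14.2% and 24%). Of 10 fibroblast markers 8 were lower and 1 higher, CD68 was called higher (1.68), and 1 of the 2 epithelial markers tested was called higher. The part of these markers was not tested in either comparison. RPS13 rose most among members with at least 100 counts, from 76.2 and 102 to 175 and 171 normalized counts, a log2 change of 0.95 ± 0.18 (adjusted p = 7.9e-05). RPS24 changed by 0.91 ± 0.14 (adjusted p = 1.3e-05) and RPS10 by 0.84 ± 0.19 (adjusted p = 0.0008). RPS23, a protein of the decoding centre, fell from 207 and 228 to 143 and 139, a change of -0.63 ± 0.17 (adjusted p = 0.0035), and RPL3 fell by 0.36 on the log2 scale (adjusted p = 0.034). RPS13, RPS24 and RPS10 kept their calls in 20 of 20 alternatives, and RPL3 in 12 of 20. Without replicate 1 of shMETTL14 the count of members higher was 15 (all genes 13.3%), without replicate 1 or 2 of control 21 and 19 (all genes 14.1% and 13.4%), and with DESeq2 21 (all genes 13.8%).

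The rest of the translation machinery was read from lists. Their counts stand against the shares of all genes already given, 13.3% higher and 13.3% lower in senescence and 12.3% and 11.2% after shMETTL3. These shares were 9.15% and 12% after shMETTL14, and 16.5% and 18.7% between the knockdowns. The list values come from the fit without offsets for gene length or GC content. Between the knockdowns other protein-coding genes had medians of 0.55 up to 5 kb, 0.42 from 5 to 10 kb and 0.32 from 10 to 20 kb. They had -0.39 over 100 kb, and the part of length in the list values was not tested. Other 5'TOP genes, which encode elongation factors and ribosome-associated proteins, had 14 of 25 higher and 2 lower in shMETTL14 against shMETTL3 (median log2 difference 0.47). The 3 with the largest rise were EEF1G, a subunit of the factor that reloads eEF1A (1.38), EIF3L, a subunit of initiation factor eIF3 (0.94), and EEF2, which moves the ribosome along the mRNA (0.89). NAP1L1, a histone chaperone (-0.63), and EIF4B, a helper of the cap-binding complex (-0.44), were the ones lower. After shMETTL3 6 of the 25 fell (median -0.27), with EEF1G at -0.83, HNRNPA1, an RNA-binding protein of splicing, at -0.76 and EEF1A1, the carrier of aminoacyl-tRNA, at -0.67. After shMETTL14 6 rose and 2 fell (median 0.22), and in senescence 6 rose and 1 fell (median 0.13).

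Other initiation factors were the list with most calls in senescence, 8 of 25 higher (median 0.33), led by EIF4A1, the helicase of the cap-binding complex (0.93), EIF3I (0.71) and EIF3D (0.70). After shMETTL3 1 of these 25 was higher and 6 were lower (median -0.25), and after shMETTL14 2 were higher and 2 lower (median 0.19). Between the knockdowns 11 were higher and 2 lower (median 0.41), with EIF3G at 1.07 and EIF5B, the GTPase of subunit joining, at -1.09. Mitochondrial ribosomal proteins, which serve the separate ribosome of mitochondria, had 18 of 75 higher and 1 lower between the knockdowns (median 0.36), with MRPS2 at 3.61, and 3 higher in senescence (median 0.13). After shMETTL3 5 of these 75 fell (6.67%, median -0.28), and after shMETTL14 8 rose (10.7%, median 0.17), shares near or below those of all genes.

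Regulators of these genes and mRNAs, such as mTOR and its partners, had 3 of 23 higher and 2 lower in senescence and 2 lower after shMETTL3, none of which exceeds the share of all genes, 5 higher and 1 lower after shMETTL14, and 7 higher and 3 lower between the knockdowns (median 0.22). CNBP, which binds TOP mRNAs, was at 1.11, MYC, a driver of ribosome synthesis, at 1.03 and RPS6KB2, a kinase of ribosomal protein S6, at 1.03, while EIF4EBP2, an inhibitor of cap-dependent initiation, was at -1.39 and MTOR at -0.56. MYC also rose in senescence (0.99, adjusted p = 0.0055) and after shMETTL14 (0.83, adjusted p = 0.0083). Chaperones and escorts of ribosomal proteins had 3 of 18 higher in senescence (16.7%), 2 higher and 1 lower after shMETTL3, 3 higher after shMETTL14, and 4 higher and 4 lower between the knockdowns (median -0.07). Among them GRWD1, which escorts RPL3, was at 2.27, and MDM2, the p53 ligase bound by RPL5 and RPL11, at -0.64. MDM2 rose against shControl after both knockdowns, by 1.51 with shMETTL3 and 0.88 with shMETTL14.

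**Figure D5:**
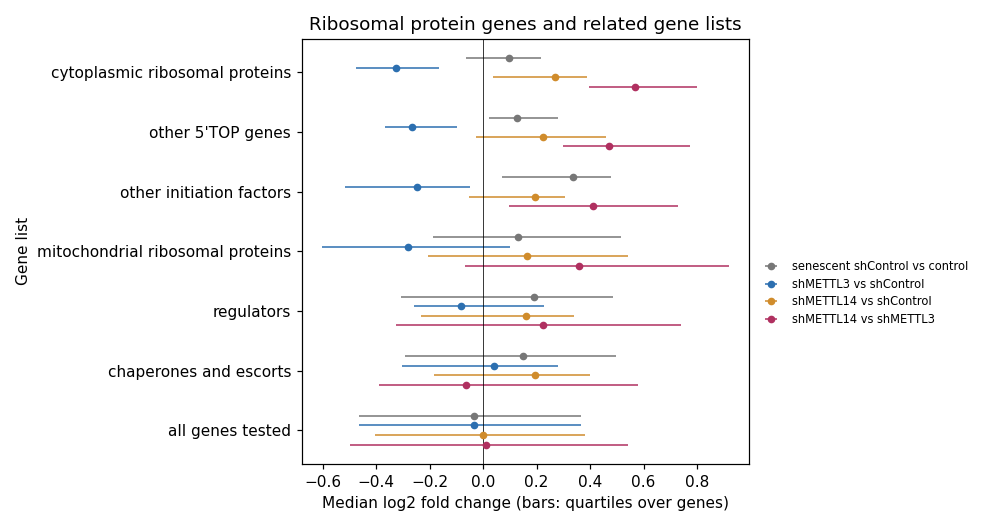
Median log2 fold change (points) with the quartiles over genes (bars) of the ribosomal protein genes, 5 related gene lists and all genes tested, in 4 comparisons. In shMETTL14 against shMETTL3 the median is 0.57 for the ribosomal protein genes, 0.47 for other 5'TOP genes, 0.41 for other initiation factors, 0.36 for mitochondrial ribosomal proteins and 0.01 for all genes. These medians come from the fit without an offset for gene length.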

How the data were processed

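The deposited file holds raw counts per gene, which the authors made with HOMER over whole gene bodies of hg19, introns included, not normalized and 1 column per library; the submitters' processing notes name STAR and deepTools 3.3. The header names a strand option, yet in 313 of 315 pairs where a gene with at least 100 counts lies inside a gene of the other strand, the counts of the outer gene were at least as high in each library, so overlapping genes share reads. The Drosophila spike-in of the study was not used here.

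All 8 libraries were fitted together in edgeR 4.0.16 (R 4.3.3): TMM, filterByExpr with a minimum count of 10, a quasi-likelihood fit over the 4 groups, and Benjamini-Hochberg adjustment over 12844 genes at 0.05; the SE is the log2 change divided by the root of the F statistic. DESeq2 1.42.0 was an alternative. Normalized counts are counts scaled to a common effective library of 17914006. The biological coefficient of variation was 10.6%. With simulated data for shMETTL3 against shControl over 12254 genes, 126 of 200 genes changed by 1 on the log2 scale were called in the right direction, with 10 false calls, and 64 of 66 of those with a mean of at least 100 counts.

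The gene group, which symbol and biotype define, and the lists were chosen with earlier results of these data known. Named in full were the members called with a mean of at least 100 raw counts and the same direction in every pairing of libraries, by size of change (up to 5 each way against shControl and in senescence, up to 3 elsewhere). The stalk, RPL5, RPL11, the paralog pairs and the extremes of level were named too. For other lists some of the largest changes among the called were named. RPS3 was named after its value was seen. Coordinates in hg19 are as the file lists them. Promoter sequences are from RefSeq (GRCh38.p14); 16 members had no entry matched. A few single-gene results are not reported here.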

Additional observations from a re-analysis of the deposited data

How the results depend on the processing

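The 2 libraries of a group are labelled as replicates, and the p-values measure only the variation between such libraries. That variation was estimated over all 8 libraries in a joint fit, so libraries outside a contrast also move its calls. Depth limits the genes with low counts, as RPL26L1 with 2 to 27 counts per library shows. Counting over whole genes cannot separate members from small RNAs inside them (32 members hold 62 such rows, 8 with over 10% of their counts there), from overlapping genes (13 members over 5% of their span) or from pseudogenes. Subtracting small RNA rows moved no count of members by more than 1.5 times.

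Scaling by library size alone, in which ribosomal RNA sets the total, shifted the median of all genes by -0.53 in senescence, 0.58 after shMETTL3, 0.35 after shMETTL14 and -0.25 between the knockdowns. Members were then 0 higher and 29 lower in senescence (median -0.40, all genes 5.85% and 39%), 17 higher and 0 lower after shMETTL3 (0.29, 41.2% and 2.75%), 50 and 1 after shMETTL14 (0.62, 24.6% and 5.52%), 22 and 3 in shMETTL14 against shMETTL3 (0.31, 9.16% and 27.1%), 4 and 9 in shMETTL3 against control (-0.13, 22.6% and 15.8%), and 15 and 4 in shMETTL14 against control (0.19, 14.2% and 24%). Relative to all genes the members' median kept its sign in each of these. Under this scaling RPS29 in senescence (-0.12) and RPL26 after shMETTL3 (0.11) changed sign.

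The length offset gave 4 lower in senescence (median -0.041), 2 higher and 2 lower after shMETTL3 (-0.068), 6 higher after shMETTL14, 19 and 6 between the knockdowns (0.14), 8 and 10 in shMETTL3 against control (-0.057), and 16 and 8 in shMETTL14 against control (0.10). The shares of all genes in the same fits stand beside these counts in the results above. With length and GC content, added after seeing the data, there were 5 lower in senescence (median 0.0033), 5 and 3 after shMETTL3 (0.021), 6 and 5 after shMETTL14 (0.10), 8 and 7 between the knockdowns (0.078), 10 and 8 in shMETTL3 against control (0.035), and 20 and 10 in shMETTL14 against control (0.11). In that fit RPLP0 (-0.012) and RPLP2 (-0.15) changed sign between the knockdowns. The cause of these moves was not tested.

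In senescence the count lower was 0 with DESeq2, without the filter, without ribosomal RNA rows, with protein-coding rows only, at an adjusted p below 0.01 and without members that overlap others, 2 with upper-quartile scaling and 3 with only the groups compared, which gave 11 higher. DESeq2 gave 7 lower after shMETTL3, 4 higher and 1 lower after shMETTL14, 0 higher and 10 lower in shMETTL3 against control, and 21 higher and 1 lower in shMETTL14 against control. At an adjusted p below 0.01 there were 9 lower after shMETTL3, 5 higher and 1 lower after shMETTL14, 0 higher and 11 lower in shMETTL3 against control, and 21 higher and 1 lower in shMETTL14 against control. The share of all genes at this threshold was not taken, so these counts cannot be read against it. With a log2 change of at least 1 required as well, 4 were higher between the knockdowns, 1 was lower after shMETTL3, 2 were lower in shMETTL3 against control, and 0 were called in senescence, after shMETTL14 or in shMETTL14 against control. For this rule too no share of all genes was taken. With only the groups compared in the fit, 23 were higher after shMETTL14. Without RPS29, 1 was lower after shMETTL14. In shMETTL3 against control the count higher was 0 with upper-quartile scaling and with at least 10 counts in every library, and 4 without ribosomal RNA rows and with protein-coding rows only. In shMETTL14 against control the count lower was 1 without the filter.

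Leaving out 1 library at a time, the counts ran from 1 to 6 higher and 0 to 3 lower in senescence, from 0 to 1 higher and 5 to 35 lower after shMETTL3, from 2 to 24 higher and 1 to 2 lower after shMETTL14, from 27 to 58 higher and 0 to 1 lower between the knockdowns, from 0 to 6 higher and 13 to 30 lower in shMETTL3 against control, and from 15 to 40 higher and 0 to 3 lower in shMETTL14 against control. A lone library was assumed to vary like the other groups. The medians kept their signs.

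Replicate numbers are shared by the groups, but deviations of same-numbered libraries correlated between -0.0435 and 0.077, so the numbers were not taken to pair the samples. With the replicate block the members were 3 higher and 1 lower in senescence (all genes 13.5% and 13%) and 23 lower after shMETTL3 (all genes 11.3%). They were 13 higher and 2 lower after shMETTL14 (all genes 9.09% and 11.9%), and 54 higher between the knockdowns (all genes 16.3%).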
